A study of Mus musculus with 24 samples.

Results

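The genes described here are 31 genes of cholesterol and fatty acid synthesis, followed through 4 populations of mouse small-intestinal crypt cells with and without neuregulin 1 (NRG1), an EGF-family ligand of ErbB receptors. They were chosen by symbol, with no threshold on measured values but with earlier results of these data known, and all 31 were found among the 43280 gene symbols of the count table. By role they comprised 7 mevalonate enzymes, 11 enzymes of squalene and sterol formation, 5 SREBP transcription factors and their regulators, 7 fatty acid enzymes and 1 sterol carrier. The mevalonate and sterol groups together are called the 18 sterol enzymes below. All 31 passed the filter on low counts in each of the 15 comparisons.

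Cells make cholesterol from acetyl-CoA through mevalonate, the isoprenoid farnesyl diphosphate, squalene and lanosterol, and they make palmitate from the same acetyl-CoA. Genes of both routes are targets of the sterol regulatory element binding proteins SREBP-1 (gene Srebf1) and SREBP-2 (Srebf2). These factors are held in the endoplasmic reticulum by SCAP and the INSIG proteins while sterols are plentiful and are released by proteolysis when sterols fall. In the intestine, crypt cells divide and renew the epithelium, and mature enterocytes absorb dietary cholesterol and export lipids.

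The mice were male C57BL/6 littermates carrying the Lgr5-EGFP reporter, which marks crypt base columnar stem cells by green fluorescence driven from the Lgr5 locus. They received intraperitoneal NRG1 (7.5 µg every 12 h for 5 days, with tissue taken on day 6) or phosphate-buffered saline (PBS), with 3 mice per treatment, replicates 1 and 2 being aged 15 weeks and replicate 3 being aged 11 weeks. From each mouse, live cells negative for CD31 and CD45 were sorted into Lgr5high cells low for CD24 (stem cells), Lgr5med cells (immediate progenitors), Lgr5low cells (later progenitors) and Lgr5neg cells negative for CD24 (differentiated cells). This gave 24 RNA-seq libraries in 8 groups of 3, prepared by whole-transcriptome amplification of 15 ng RNA. The populations of a mouse were therefore not independent samples, and in sorted bulk RNA a lower level can mean fewer cells of a type or less RNA per cell, which cannot be told apart.

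The start regions of 5 genes are shown because these genes stand for the patterns described below: Hmgcs1, Msmo1 and Sc5d were highest in Lgr5neg cells, while Acly and Fasn were lowest there. Each sequence holds the 200 bases before the RefSeq transcription start (GRCm38.p6), 5′ to 3′ on the gene's strand, and this start can differ from the GENCODE gene bounds given below. Capitals mark matches to the sterol regulatory element core TCACNCCAC, to the NF-Y motif CCAAT and to the E-box of the form CACGTG. Matches were sought on both strands, so that an NF-Y match on the other strand appears as its reverse complement. The capitals in Fasn include CCAAT matches on both strands that overlap.
Hmgcs1, chr13:119690151-119690350, plus strand: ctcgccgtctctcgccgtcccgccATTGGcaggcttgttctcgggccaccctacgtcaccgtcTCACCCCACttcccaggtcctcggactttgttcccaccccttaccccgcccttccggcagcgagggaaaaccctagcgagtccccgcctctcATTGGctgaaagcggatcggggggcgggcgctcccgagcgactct
Msmo1, chr8:64733579-64733778, minus strand: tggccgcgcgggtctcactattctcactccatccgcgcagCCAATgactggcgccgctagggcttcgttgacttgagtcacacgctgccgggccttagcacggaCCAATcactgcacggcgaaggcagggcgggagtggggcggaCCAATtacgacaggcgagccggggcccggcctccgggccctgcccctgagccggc
Sc5d, chr9:42264301-42264500, minus strand: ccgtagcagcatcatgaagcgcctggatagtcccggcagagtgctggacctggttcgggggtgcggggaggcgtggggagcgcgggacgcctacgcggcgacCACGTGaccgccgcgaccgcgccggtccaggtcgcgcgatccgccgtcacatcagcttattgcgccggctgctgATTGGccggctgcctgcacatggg
Acly, chr11:100528001-100528200, minus strand: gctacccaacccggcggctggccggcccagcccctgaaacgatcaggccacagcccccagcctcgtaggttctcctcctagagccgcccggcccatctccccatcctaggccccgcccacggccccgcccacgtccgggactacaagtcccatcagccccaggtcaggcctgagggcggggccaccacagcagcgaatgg
Fasn, chr11:120824548-120824747, minus strand: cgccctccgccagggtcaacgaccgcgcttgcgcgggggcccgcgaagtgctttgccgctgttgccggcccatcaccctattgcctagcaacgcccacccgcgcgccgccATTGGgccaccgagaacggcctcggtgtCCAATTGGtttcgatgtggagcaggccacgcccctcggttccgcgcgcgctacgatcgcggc

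Over the whole RefSeq start regions of 300 bases (250 before to 50 after the start), which were held for 25 of the 31 genes, CCAAT occurred in 21. That is 84% of these genes, against 41.1% of the 27025 genes of the table and 43% of the 9901 genes that were expressed here. All 9 squalene and sterol enzymes with a sequence held it, and Acat2, Scap, Acaca and Elovl6 did not. In Acly the match lies after the start, outside the 200 bases printed. The GC-box GGGCGG occurred in 21 of 25, against 66.9% of expressed genes. The E-box occurred in 5 (Dhcr7, Hsd17b7, Insig1, Sc5d and Scap), against 11.6% of expressed genes, and the sterol regulatory element core occurred in Hmgcs1 alone, against 1.4%. Fdps, Fdft1, Sqle, Scd1, Scd2 and Stard4 have no entry. These are letter matches and give no measure of binding.

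The libraries held 11176264 to 23343499 counts, of which mitochondrial ribosomal RNA took 37.6 to 62.4%, and 49.5 to 62.4% in Lgr5neg cells. Levels are given as CPM, which are counts brought to a common library size with trimmed-mean (TMM) factors over all 24 libraries, and 3 counts correspond to 0.113 to 0.239 CPM. Lgr5 itself followed the gates, with an average of 174 ± 62.5 CPM in Lgr5high cells of PBS mice and 1.25 ± 0.271 CPM in Lgr5neg cells (SD, n = 3). Of the marker lists, all 15 stem cell genes and all 12 G2/M genes were higher in Lgr5high than in Lgr5neg cells of PBS mice, and all 20 enterocyte genes were lower. The 9 immune genes were also higher in Lgr5neg cells, which were sorted as CD45-negative (summed level 134 ± 52 CPM against 3.01 in Lgr5high cells). The 5 endothelial genes summed to 1.54 ± 0.455 CPM in Lgr5neg and 0.354 ± 0.214 CPM in Lgr5high cells of PBS mice, with Cdh5 at 0 in every library. The 5 mesenchymal genes summed to at most 0.322 CPM in any library, with Col3a1 at 0 in all. The part these other cell types play in the differences between populations was not tested.

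Most cholesterol synthesis genes were lower in stem cells than in differentiated cells of PBS mice, and the enzymes that begin fatty acid synthesis were higher. Between Lgr5high and Lgr5neg cells, edgeR's quasi-likelihood test called 28 of the 31 genes at a Benjamini-Hochberg adjusted p under 0.05, with 6 higher and 22 lower in Lgr5high cells. Of all genes tested in this contrast, 67.4% were called (35.4% higher and 32% lower). The median log2 difference was -1.11 over the 31 genes and 0.09 over all genes. By role, 15 of the 18 sterol enzymes were lower and 1 was higher, 4 of the 5 SREBP factors and regulators were lower, and the fatty acid genes divided into 4 higher and 2 lower.

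**Figure D1:**
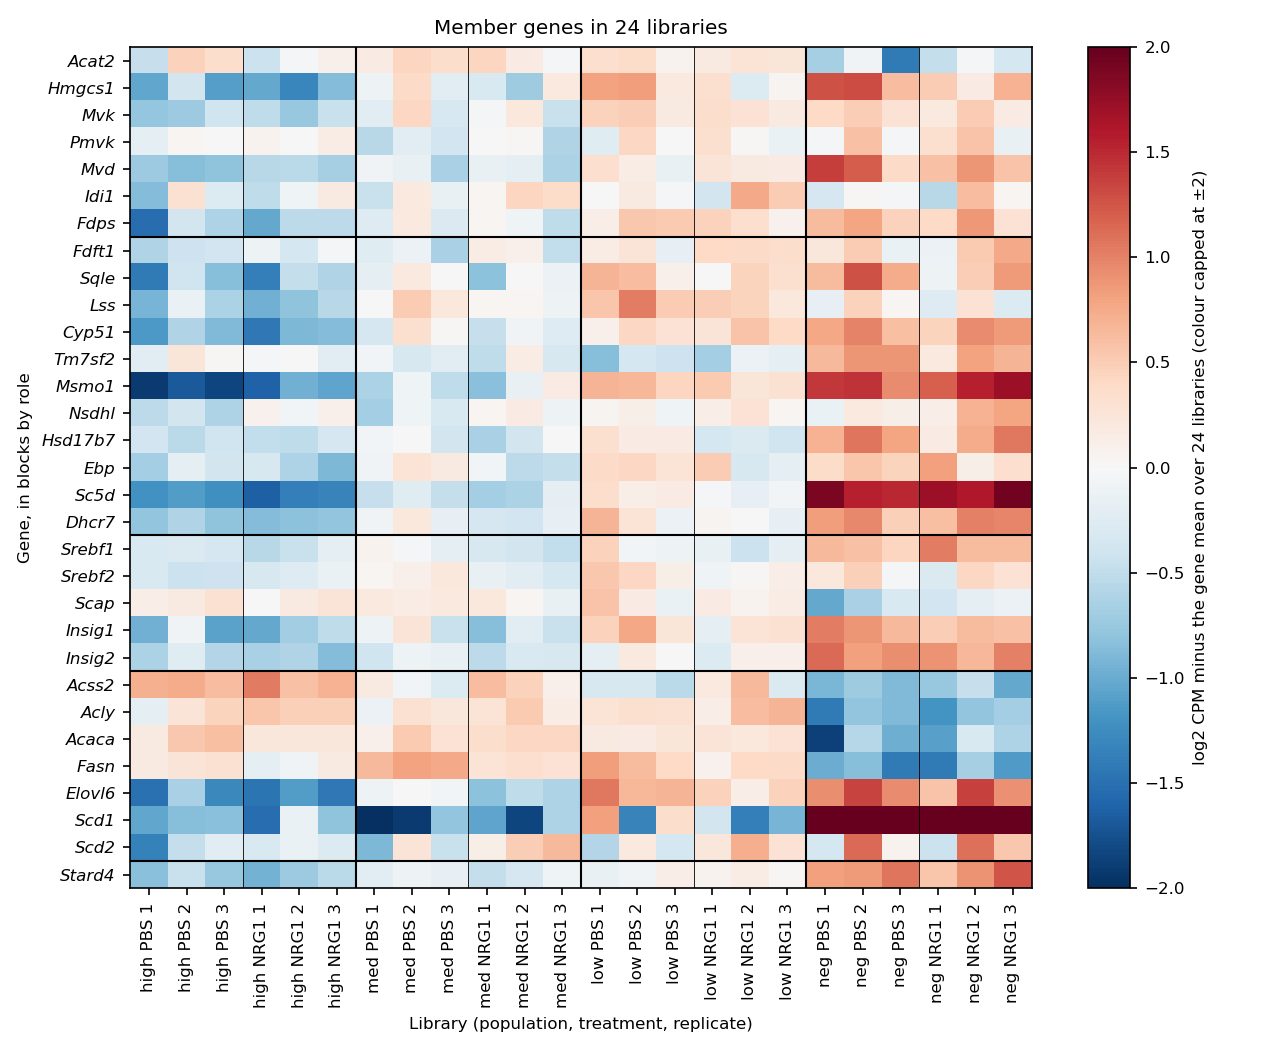
Levels of the 31 genes in all 24 libraries, as log2 CPM minus the gene's mean over libraries, with genes in rows ordered by role and libraries in columns ordered by population and treatment. Most mevalonate and sterol genes run from low in Lgr5high to high in Lgr5neg cells, while Acss2, Acly, Acaca and Fasn are lowest in Lgr5neg cells and Fasn is highest in the progenitors.

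Hmgcs1, which encodes the cytosolic synthase that forms HMG-CoA (chr13:119690379-119708260, plus strand, GRCm38), had 30.1, 47.7 and 28.7 CPM in the Lgr5high cells of PBS replicates 1, 2 and 3. It had 57.7, 81.0 and 53.0 CPM in Lgr5med cells and 108, 111 and 71.0 CPM in Lgr5low cells. In Lgr5neg cells it reached 150, 152 and 94.6 CPM. Every Lgr5neg value was above every Lgr5high and Lgr5med value, and Lgr5low and Lgr5neg cells overlapped. The log2 difference of Lgr5high from Lgr5neg cells was -1.98 (SE 0.255, adjusted p = 8.01e-06). Of the other mevalonate enzymes, Mvd (log2 difference -1.95), Fdps (-1.49) and Mvk (-1.11) were also lower in Lgr5high cells. Acat2, the cytosolic acetoacetyl-CoA thiolase at the head of the route, was higher there (0.72, adjusted p = 0.0302), with 8.43, 16.1 and 14.8 CPM against 7.3, 11.1 and 4.28, so that the groups overlapped. Pmvk (-0.32) and Idi1 (-0.16) did not pass the test. Shared sequence makes some of these values uncertain, since 33.7% of 76-base windows of Acat2 also occur in Acat3. Of Fdps 23.4% occur in other genes, mostly in Gm43738, and of Idi1 23.5% occur elsewhere among the transcripts.

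All 11 enzymes from squalene formation to the last sterol steps were lower in Lgr5high cells on the TMM scale, and Nsdhl turned to 0.02 when libraries were scaled by their totals, as described below. Sqle, the squalene epoxidase, had 13.1, 26.5 and 19.4 CPM in Lgr5high cells, 30.7, 40.1 and 34.9 CPM in Lgr5med cells, 56.4, 53.8 and 37.5 CPM in Lgr5low cells and 54.6, 84.9 and 58.8 CPM in Lgr5neg cells of PBS mice. Its Lgr5high values lay below all others, and Lgr5low and Lgr5neg cells overlapped (log2 difference of Lgr5high from Lgr5neg -1.83, SE 0.242, adjusted p = 6.04e-06). The widest differences among the sterol enzymes were in C4 demethylation and C5 desaturation. Msmo1, the C4-methylsterol oxidase, had 2.87, 3.42 and 3.06 CPM in Lgr5high and 29.7, 30.6 and 21.5 CPM in Lgr5neg cells (-3.20, SE 0.204, adjusted p = 5.5e-11). Sc5d, the sterol C5-desaturase (chr9:42251595-42264256, minus strand), had 8.94, 9.59 and 8.86 CPM in Lgr5high and 77.4, 61.9 and 60.0 CPM in Lgr5neg cells (-2.94, SE 0.15, adjusted p = 2.65e-12). For both genes the ranges were far apart. Cyp51, the lanosterol 14α-demethylase, had 23.9, 34.9 and 28.9 CPM against 90.7, 105 and 80.7 CPM (-1.74, SE 0.174, adjusted p = 3.7e-08). The remaining enzymes were Dhcr7 (-1.58), Hsd17b7 (-1.39), Ebp (-0.94), Tm7sf2 (-0.87), Fdft1 (-0.77), Lss (-0.75) and Nsdhl (-0.65), and of these the Lss groups overlapped. Fdft1 shares 774 bases with the opposite-strand gene Ctsb, or 18.3% of its exon bases, and the strand setting of the counting is not given in the sources used here.

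**Figure D2:**
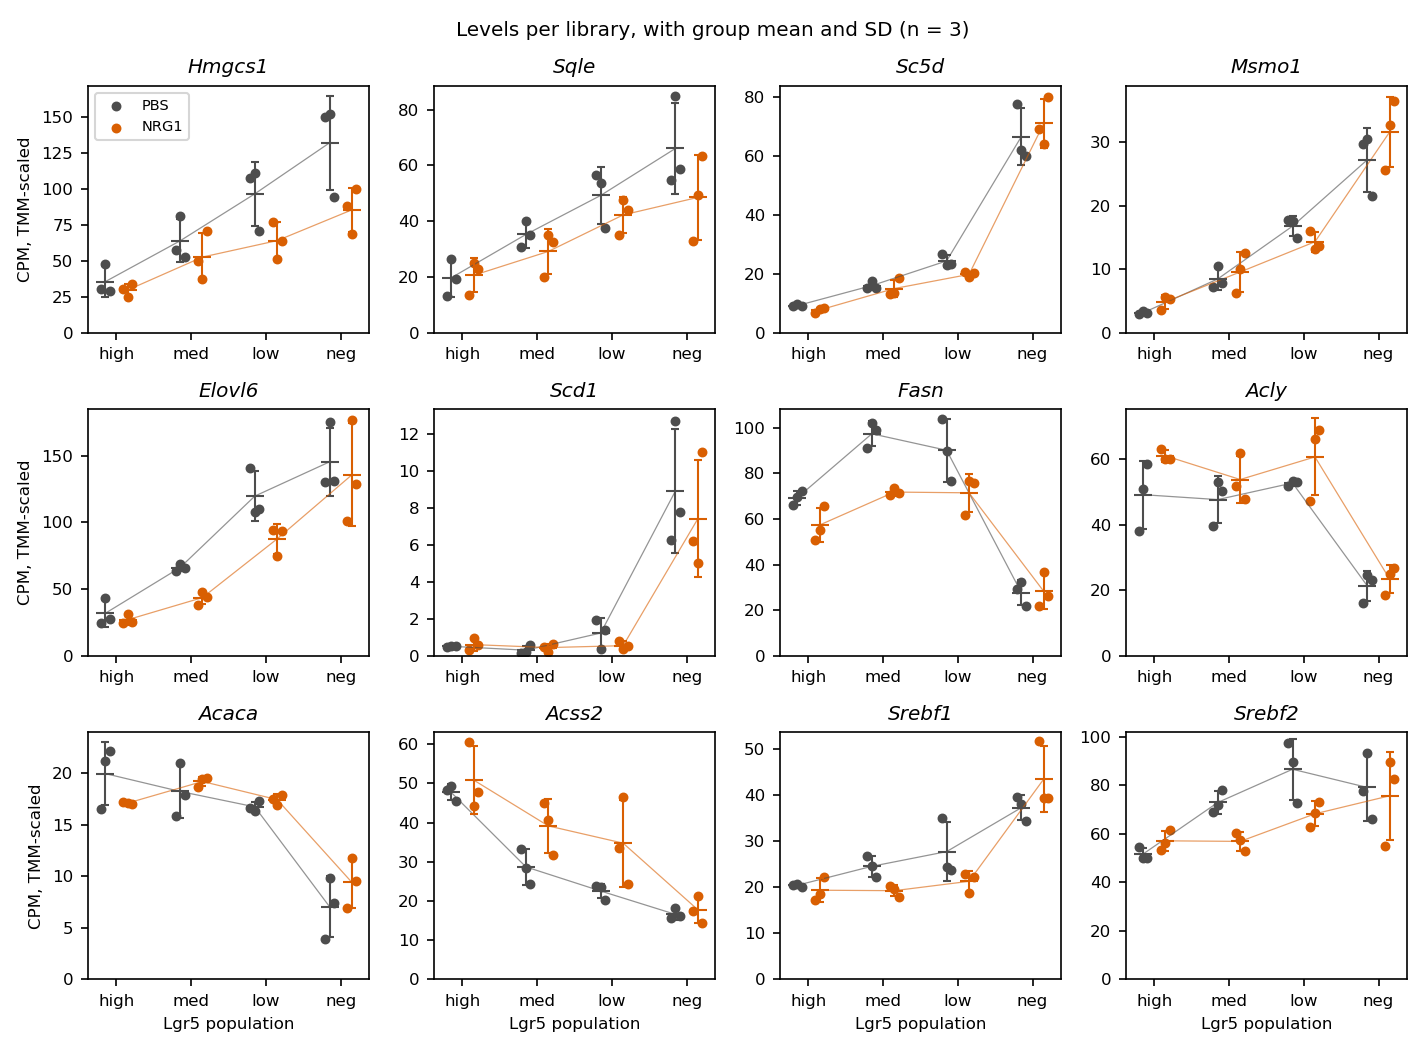
CPM of selected genes in each library, by population on the horizontal axis and with PBS and NRG1 mice in separate colours, where each point is 1 library. Hmgcs1 and Sqle climb from Lgr5high to Lgr5neg cells, Fasn drops in Lgr5neg cells, and Scd1 is low outside Lgr5neg cells.

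Among the factors that control the pathway, the transcripts of the SREBPs and of both INSIGs were lower in Lgr5high cells and that of SCAP was higher. Srebf2 had 54.5, 50 and 50.1 CPM in Lgr5high, 68.9, 71.6 and 77.9 CPM in Lgr5med, 97.4, 89.5 and 72.6 CPM in Lgr5low and 77.5, 93.4 and 66.1 CPM in Lgr5neg cells of PBS mice. Its lowest values were all in Lgr5high cells, and the other 3 populations overlapped (Lgr5high against Lgr5neg log2 difference -0.70, SE 0.145, adjusted p = 0.000289). Srebf1 had 20.5, 20.7 and 20 CPM in Lgr5high, 26.7, 24.7 and 22.2 CPM in Lgr5med, 35.1, 24.4 and 23.7 CPM in Lgr5low and 39.6, 38.0 and 34.3 CPM in Lgr5neg cells (-0.95, SE 0.157, adjusted p = 2.43e-05). Insig1, itself an SREBP target that retains the SREBPs, had 12.3, 23 and 11.5 CPM in Lgr5high, 22.4, 28.7 and 17.6 CPM in Lgr5med, 33.3, 41.1 and 28.5 CPM in Lgr5low and 49.0, 44.5 and 37.8 CPM in Lgr5neg cells. Lgr5high and Lgr5neg cells were well separated for Insig1 (-1.57, SE 0.246, adjusted p = 3.27e-05), and its paralogue Insig2 differed by -1.52. Scap, the escort protein of the SREBPs, had 22.3, 23.1 and 25.3 CPM in Lgr5high and 9.93, 13 and 16.4 CPM in Lgr5neg cells (0.77, SE 0.193, adjusted p = 0.0016).

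Fatty acid synthesis did not move as 1 block. The 4 enzymes that make palmitate from acetate or citrate were all higher in Lgr5high than in Lgr5neg cells of PBS mice. Elovl6, Scd1 and Scd2, the elongase and desaturase genes of the chosen set, were not. Of such genes outside the set, the elongase gene Elovl5 averaged 55.5 CPM in Lgr5high and 22.9 CPM in Lgr5neg cells. The desaturase genes Fads1 (207 and 4.39 CPM) and Fads2 (99.4 and 17.4 CPM) also averaged higher in Lgr5high cells. The elongase genes Elovl1 (20.5 and 59.9 CPM) and Elovl7 (62 and 115 CPM) averaged lower there. Fasn, the fatty acid synthase (chr11:120805846-120824547, minus strand), had 66.2, 69.5 and 72.1 CPM in Lgr5high, 91.2, 102 and 99.0 CPM in Lgr5med, 104, 90 and 76.5 CPM in Lgr5low and 29.2, 32.2 and 21.7 CPM in Lgr5neg cells. Its level was thus highest in the progenitors and lowest in differentiated cells (Lgr5high against Lgr5neg log2 difference 1.24, SE 0.151, adjusted p = 5.1e-07). Acly, the ATP citrate lyase, had 38.0, 51.1 and 58.6 CPM in Lgr5high and 16, 24.8 and 23.3 CPM in Lgr5neg cells (1.13, SE 0.181, adjusted p = 1.78e-05). Acaca, an acetyl-CoA carboxylase, had 16.5, 21.2 and 22.2 CPM against 3.94, 9.78 and 7.38 CPM (1.43, SE 0.236, adjusted p = 2.58e-05), with 26.6% of its 76-base windows also found in other genes, mostly in Gm5182. Acss2, which activates free acetate, had 48.3, 49.4 and 45.4 CPM against 15.5, 18.1 and 16 CPM (1.45, SE 0.149, adjusted p = 5.4e-08). None of the 4 genes overlapped between these populations.

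Elovl6, which elongates palmitate to stearate (chr3:129532355-129638495, plus strand), ran opposite to the enzymes that make its substrate, with 24.3, 43.4 and 27.9 CPM in Lgr5high and 130, 175 and 131 CPM in Lgr5neg cells (-2.27, SE 0.192, adjusted p = 5.16e-09). Scd1, a stearoyl-CoA desaturase, was low outside differentiated cells, with 0.463, 0.544 and 0.548 CPM (10, 14 and 12 counts) in Lgr5high and 6.28, 12.7 and 7.77 CPM (86, 164 and 98 counts) in Lgr5neg cells (-4.17, SE 0.527, adjusted p = 9.65e-07). Its Lgr5med values were 0.137, 0.207 and 0.572 CPM and its Lgr5low values 1.95, 0.361 and 1.39 CPM. Scd2, another stearoyl-CoA desaturase, had 17.2, 31.4 and 37.6 CPM in Lgr5high, 23.4, 52.4 and 32.1 CPM in Lgr5med, 29.1, 50.3 and 34.4 CPM in Lgr5low and 34.5, 95.8 and 46.2 CPM in Lgr5neg cells. The Scd2 groups overlapped and the difference missed the threshold (-1.11, SE 0.473, adjusted p = 0.0625). With the mouse as a block it passed (adjusted p = 0.000146), as it did with DESeq2 (0.0426). Stard4, a carrier of cholesterol between membranes, had 67.2, 88.2 and 70.5 CPM in Lgr5high and 213, 216 and 252 CPM in Lgr5neg cells (-1.67, SE 0.137, adjusted p = 1.93e-09).

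Levels of different genes were compared per kilobase of exon, counting every base annotated as exon in any isoform of the gene. A gene with much exon sequence outside its main transcript can therefore read too low, so the order depends on the annotation. Acss2, at 47.7 CPM and 4.69 CPM per kb in Lgr5high cells of PBS mice, was divided by 10163 bases, and Stard4 by 5586. On this scale Stard4 was the highest of the 31 genes at both ends of the series. It averaged 13.5 CPM per kb in Lgr5high and 40.6 in Lgr5neg cells of PBS mice. In Lgr5high cells Acly (9.33), Hmgcs1 (7.73) and Pmvk (7.52) came next. In Lgr5neg cells the next were Hmgcs1 (28.8), Elovl6 (22.6) and Cyp51 (20.9). Scd1 was at 0.106 CPM per kb in Lgr5high cells.

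The size of the population differences depended on how libraries were scaled. The 20 enterocyte markers summed to 67300 ± 17100 CPM in Lgr5neg and 1760 in Lgr5high cells. When libraries were scaled by their total counts outside mitochondrial ribosomal RNA without a TMM factor, an alternative chosen after seeing the data, the median of all genes shifted by 0.66 to 0.75 and the median of the 31 genes became -0.44. Then 6 genes were higher and 14 lower in Lgr5high cells, all of them called in the same direction under TMM. Of all genes, 10188 were called with library totals and 9576 under TMM. Srebf1 (-0.27), Srebf2 (-0.03), Ebp, Mvk, Tm7sf2, Fdft1, Lss and Nsdhl no longer passed. As a share of counts outside mitochondrial ribosomal RNA, the 31 genes took 0.145 ± 0.02% in Lgr5high, 0.187 ± 0.0212% in Lgr5med, 0.214 ± 0.026% in Lgr5low and 0.191 ± 0.0359% in Lgr5neg cells of PBS mice.

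Ratios of counts within a library do not depend on scaling. Because genes differ in length, only their change between libraries is read. Of the 4 palmitate-synthesis enzymes, Acly and Acss2 form acetyl-CoA, from which both routes start, so a ratio to these 4 does not separate the routes fully. In PBS mice the ratio of the 18 sterol enzymes to the 4 palmitate-synthesis enzymes was 1.28 ± 0.165 in Lgr5high, 1.85 ± 0.179 in Lgr5med, 2.6 ± 0.195 in Lgr5low and 8.83 ± 1.06 in Lgr5neg cells (SD, n = 3). The 3 Lgr5neg libraries spanned 7.91 to 9.99, and no Lgr5high library exceeded 1.47. Elovl6 to Fasn averaged 0.459, 0.68, 1.33 and 5.3 in the same groups. The balance of transcripts of enzymes that share a reaction also differed. Sterol C14 reduction is carried out by the products of Lbr and Tm7sf2, and Lbr to Tm7sf2 averaged 6.15, 6.96 and 6.95 in the 3 Lgr5-positive populations and 0.651 ± 0.103 in Lgr5neg cells. Tm7sf2 shares 532 bases, or 12.1% of its exon bases, with the same-strand gene Vps51, which makes its counts less certain. Lbr and these ratios were chosen after their values were seen.

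**Figure D3:**
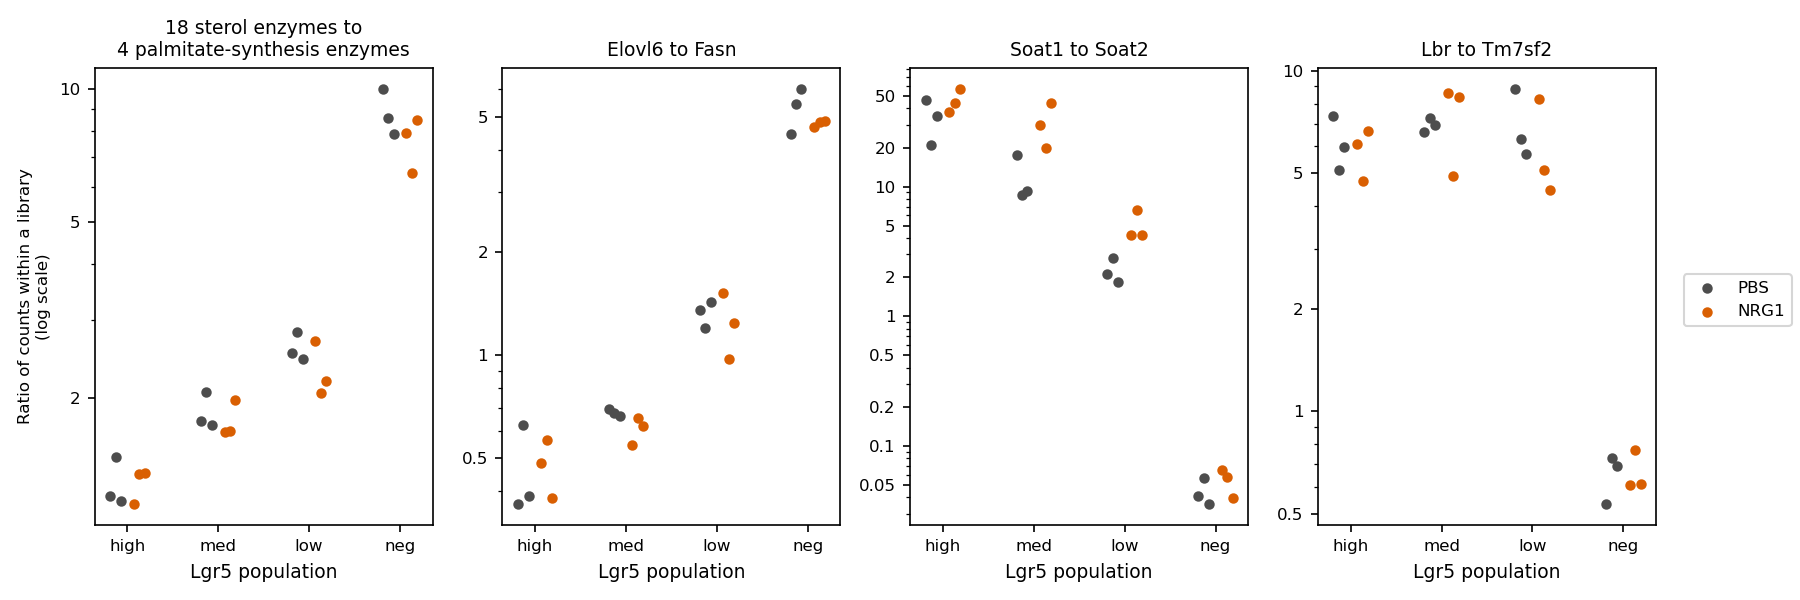
Ratios of counts within each library (log axes) for 4 pairs of genes or gene groups, by population, with PBS and NRG1 mice in separate colours and 1 point per library. The ratio of sterol to palmitate-synthesis enzymes climbs from 1.28 to 8.83 on average in PBS mice, Elovl6 to Fasn climbs, Soat1 to Soat2 drops from 34.2 to 0.0444, and Lbr to Tm7sf2 drops in Lgr5neg cells alone.

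Of the rest of the lipid pathway 45 further genes were tested, of which 12 were higher and 21 lower in Lgr5high than in Lgr5neg cells of PBS mice, against 67.4% of all genes called in this contrast (35.4% higher and 32% lower). Npc1l1, the transporter for dietary cholesterol, averaged 30.8 CPM in Lgr5high and 1390 CPM in Lgr5neg cells (log2 difference -5.58, adjusted p = 4.23e-12). Abcg8, which pumps sterols back to the lumen, went from 21.1 to 214 CPM (-3.43, adjusted p = 1.1e-10), and Acsl5, a fatty acyl-CoA synthetase, from 101 to 1170 CPM (-3.61). The 2 cholesterol esterification enzymes differed in opposite directions: Soat2 averaged 6.34 CPM in Lgr5high and 119 CPM in Lgr5neg cells (-4.31, adjusted p = 1.16e-13), while Soat1, chosen after its values were seen, averaged 214 and 5.19 CPM (5.28, SE 0.311, adjusted p = 1.81e-09). The ratio Soat1 to Soat2 averaged 34.2 in Lgr5high, 11.8 in Lgr5med, 2.26 in Lgr5low and 0.0444 in Lgr5neg cells of PBS mice. The electron donors of the sterol oxidases Cyb5b (-2.43), Cyb5r3 (-2.74) and Por (-2.85) were lower in Lgr5high cells along with the oxidases. Acsl3, another acyl-CoA synthetase, was higher there, at 56.1 against 16.5 CPM (1.69).

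The step-by-step comparisons located these differences along the series. From Lgr5high to Lgr5med cells of PBS mice, 13 of the 31 genes were called, 1 higher and 12 lower in Lgr5high cells, against 9.17% of all genes (2.44% higher and 6.72% lower). Msmo1 (log2 difference -1.44, SE 0.2, adjusted p = 0.000203), Elovl6 (-1.06, SE 0.186, adjusted p = 0.0014), Sc5d (-0.81, SE 0.145, adjusted p = 0.00145) and Cyp51 (-0.89, SE 0.171, adjusted p = 0.00247) led the lower genes. Hmgcs1 (-0.85, adjusted p = 0.0478), Sqle (-0.84, adjusted p = 0.037), Fasn (-0.49, adjusted p = 0.039), Srebf2 (-0.50), Dhcr7 (-0.73), Lss (-0.79), Ebp (-0.54) and Stard4 (-0.51) were the others, and Acss2 was the 1 higher gene (0.73). With the mouse as a block Fdps (adjusted p = 0.0291) and Insig1 (0.0183) also passed, for 14 lower genes. With library totals in place of TMM, 1 higher and 5 lower genes were called. Of all genes, the block called 1755 and library totals 1199, against 1302 in the main fit. Leaving out single libraries gave 5 to 13 calls, with the count moving by over 1.5 times without Lgr5high replicate 1 or 3 or without Lgr5med replicate 2 or 3. The fits that moved it called 634 to 742 of all genes.

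From Lgr5med to Lgr5low cells of PBS mice, 4 of the 31 genes were lower in Lgr5med cells and none higher, against 7.59% of all genes called (2% higher and 5.59% lower). These were Msmo1 (-0.98, SE 0.185, adjusted p = 0.00267), Elovl6 (-0.85, SE 0.183, adjusted p = 0.0071), Sc5d (-0.60, SE 0.14, adjusted p = 0.0109) and Scd1 (-2.01, SE 0.578, adjusted p = 0.0388). The Scd1 groups overlapped at very low counts. With the mouse as a block 7 genes passed, among them Hmgcs1 (adjusted p = 0.00682) and Insig1 (0.0178). That fit called 1523 of all genes, against 1078 without the block. Without Lgr5med replicate 1 or Lgr5low replicate 1 the count moved by over 1.5 times, within a range of 2 to 4. Those fits called 464 and 672 of all genes, in that order.

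From Lgr5low to Lgr5neg cells of PBS mice, 6 genes were higher and 11 lower in Lgr5low cells, against 55.8% of all genes called (30.6% higher and 25.3% lower). Sc5d (-1.53, SE 0.14, adjusted p = 2.5e-08), Stard4 (-1.03, SE 0.134, adjusted p = 2.34e-06) and the sterol reductase gene Tm7sf2 (-1.43, SE 0.199, adjusted p = 5.28e-06) were lower, and Fasn was higher (1.62, SE 0.152, adjusted p = 3.39e-08). Acly (1.22), Acaca (1.17), Acat2 (0.81), Scap (0.78) and Acss2 (0.36) were the other higher genes. Between Lgr5high and Lgr5neg cells the differences of Acly, Acaca and Fasn had been 1.13, 1.43 and 1.24. The other lower genes were Scd1 (-2.93), Insig2 (-1.04), Mvd (-1.02), Msmo1 (-0.78), Hsd17b7 (-0.72), Cyp51 (-0.61), Dhcr7 (-0.54) and Srebf1 (-0.51). Acss2 had 33.3, 28.4 and 24.3 CPM in Lgr5med and 23.7, 23.5 and 20.3 CPM in Lgr5low cells, below its Lgr5high level already. With the mouse as a block Hmgcs1 (adjusted p = 0.00196), Sqle (0.0223), Insig1 (0.0168) and Scd2 (0.00926) also passed as lower and Lss (0.00495) as higher. With library totals in place of TMM, the median of all genes moved by 0.51, and 8 genes were higher and 5 lower. All 5 lower and 6 of the higher genes were also called under TMM, while Srebf1 turned from -0.51 to 0.02. Library totals called 8876 of all genes here, against 7931 under TMM.

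Group means in PBS mice were higher at each successive step from Lgr5high to Lgr5neg for 19 of the 31 genes on the TMM scale, against 21% of all genes, and lower at each step for Acss2 and Acaca, against 25.8%. With library totals the means were higher at each step for 9 (Hmgcs1, Mvd, Cyp51, Msmo1, Hsd17b7, Sc5d, Dhcr7, Insig2 and Stard4), and higher through to Lgr5low cells for 21. The share of all genes was not computed on that scale. Goblet cell markers, summed over 9 genes, also changed along the series, from 1090 CPM in Lgr5high through 12200 in Lgr5med and 21400 in Lgr5low to 5530 in Lgr5neg cells, and their part in these steps was not tested.

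The populations of the NRG1-treated mice were compared in the same way. Between Lgr5high and Lgr5neg cells 4 genes were higher and 23 lower, against 65.5% of all genes called (33.5% higher and 32% lower). The lower genes were led by Sc5d (-3.31, SE 0.171, adjusted p = 3.27e-11), Elovl6 (-2.43, SE 0.187, adjusted p = 4.85e-09), Dhcr7 (-1.82, SE 0.143, adjusted p = 5.74e-09) and Msmo1 (-2.80, SE 0.246, adjusted p = 2.46e-08). Scd2 passed here (-0.87, adjusted p = 0.0189). Between Lgr5low and Lgr5neg cells 4 were higher and 14 lower, against 57% of all genes (30.4% higher and 26.6% lower), with Sc5d (-1.90, SE 0.161, adjusted p = 3.38e-08), Acly (1.32, SE 0.163, adjusted p = 2.87e-06), Fasn (1.28, SE 0.164, adjusted p = 4.13e-06) and Scd1 (-3.85, SE 0.513, adjusted p = 6.44e-06) first. With the mouse as a block Hmgcs1 (adjusted p = 0.00544) and Ebp (0.00888) also passed as lower, and Acat2 (0.0441) and Lss (0.0455) as higher. With library totals in place of TMM these counts became 6 and 15 for Lgr5high against Lgr5neg cells, and 7 and 8 for Lgr5low against Lgr5neg cells. Of all genes, library totals called 10048 and 8935 in these comparisons, against 9375 and 8161 under TMM. The ratio of sterol to palmitate-synthesis enzymes within libraries was 1.28, 1.78, 2.31 and 7.62 ± 1.06 in the 4 populations of NRG1 mice, in the same order.

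Fewer genes passed at the early steps in NRG1 mice. Between Lgr5high and Lgr5med cells 6 were lower and none higher, against 3.11% of all genes (0.594% higher and 2.52% lower). These were Sc5d (-0.98, SE 0.163, adjusted p = 0.00333), Cyp51 (-0.82, SE 0.168, adjusted p = 0.0126), Lss (-0.78, SE 0.176, adjusted p = 0.0199), Msmo1 (-0.99, SE 0.241, adjusted p = 0.0298), Dhcr7 and Elovl6. With the mouse as a block 9 passed, with Hmgcs1 (adjusted p = 0.000837), Sqle (0.0275) and Stard4 (0.036) added, and leaving out Lgr5high replicate 1 or 3 or Lgr5med replicate 2 or 3 moved the count by over 1.5 times, within 1 to 5. Between Lgr5med and Lgr5low cells Elovl6 (-1.03, SE 0.18, adjusted p = 0.00366), Cyp51 (-0.70, SE 0.166, adjusted p = 0.023) and Insig1 (-0.65, SE 0.18, adjusted p = 0.0468) were lower and none higher, against 4.72% of all genes (0.923% higher and 3.8% lower). Here 6 passed with the block, with Sqle (adjusted p = 0.0103), Msmo1 (0.0456) and Stard4 (0.0449) added, and 1 with library totals. Of all genes, the block called 1266 and library totals 512, against 675 in the main fit. Leaving out Lgr5med replicate 1 or Lgr5low replicate 2 or 3 moved the count by over 1.5 times, within 1 to 3. Those fits called 212, 738 and 204 of all genes, in that order.

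Few of the 31 genes passed the test between NRG1 and PBS mice. In Lgr5high cells edgeR called 1 of 31 genes higher and none lower, against 7.33% of all genes (3.18% higher and 4.15% lower), and DESeq2 gave the same counts. The called gene was Nsdhl, the sterol C4-decarboxylating dehydrogenase at chrX:72918557-72958514 (plus strand). It had 17.2, 19.1 and 16.1 CPM in PBS and 26.2, 23.8 and 26.7 CPM in NRG1 replicates 1, 2 and 3, so that all NRG1 values lay above all PBS values. The change was 1.48-fold (log2 difference 0.57, SE 0.13, adjusted p = 0.0136). It held in 10 of 14 alternative fits, whose adjusted p ranged from 0.00377 to 0.109, and was lost in a model of all 24 libraries (0.0514), in the 15-week-old mice alone (0.109) and without Lgr5high NRG1 replicate 1 (0.0513) or 3 (0.0639). All 12 G2/M markers were also higher with NRG1 in these cells (summed 3520 ± 486 against 2130 ± 128 CPM), and their part in the Nsdhl difference was not tested.

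The remaining 30 genes did not pass in Lgr5high cells, and 5 of the 31 had an unadjusted p under 0.05, against 22.8% of all genes. Their median log2 difference was -0.04, against 0.01 over all genes. Hmgcs1 had 30.2, 24.9 and 33.9 CPM with NRG1 (-0.24, SE 0.181, adjusted p = 0.478) and overlapped its PBS values. Sqle had 13.6, 25.1 and 23 CPM (0.09, adjusted p = 0.907), Insig1 had 11.8, 14.9 and 16.9 CPM (-0.08) and Srebf1 had 17.2, 18.6 and 22.2 CPM (-0.06), all overlapping their PBS values. Srebf2 had 53.4, 56.3 and 61.3 CPM (0.17), Scd1 had 0.301, 0.961 and 0.563 CPM (0.27) and Scd2 had 35.4, 40.1 and 36.1 CPM (0.40), again overlapping. Fasn had 50.9, 55.4 and 65.8 CPM, below every PBS value, and did not pass (-0.25, SE 0.118, adjusted p = 0.218). Of the other pathway genes, Npc1, which exports cholesterol from lysosomes (0.49, adjusted p = 0.0272), and Pdss1, a subunit of the enzyme that makes the side chain of ubiquinone (0.46, adjusted p = 0.0466), were higher and none was lower.

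**Figure D4:**
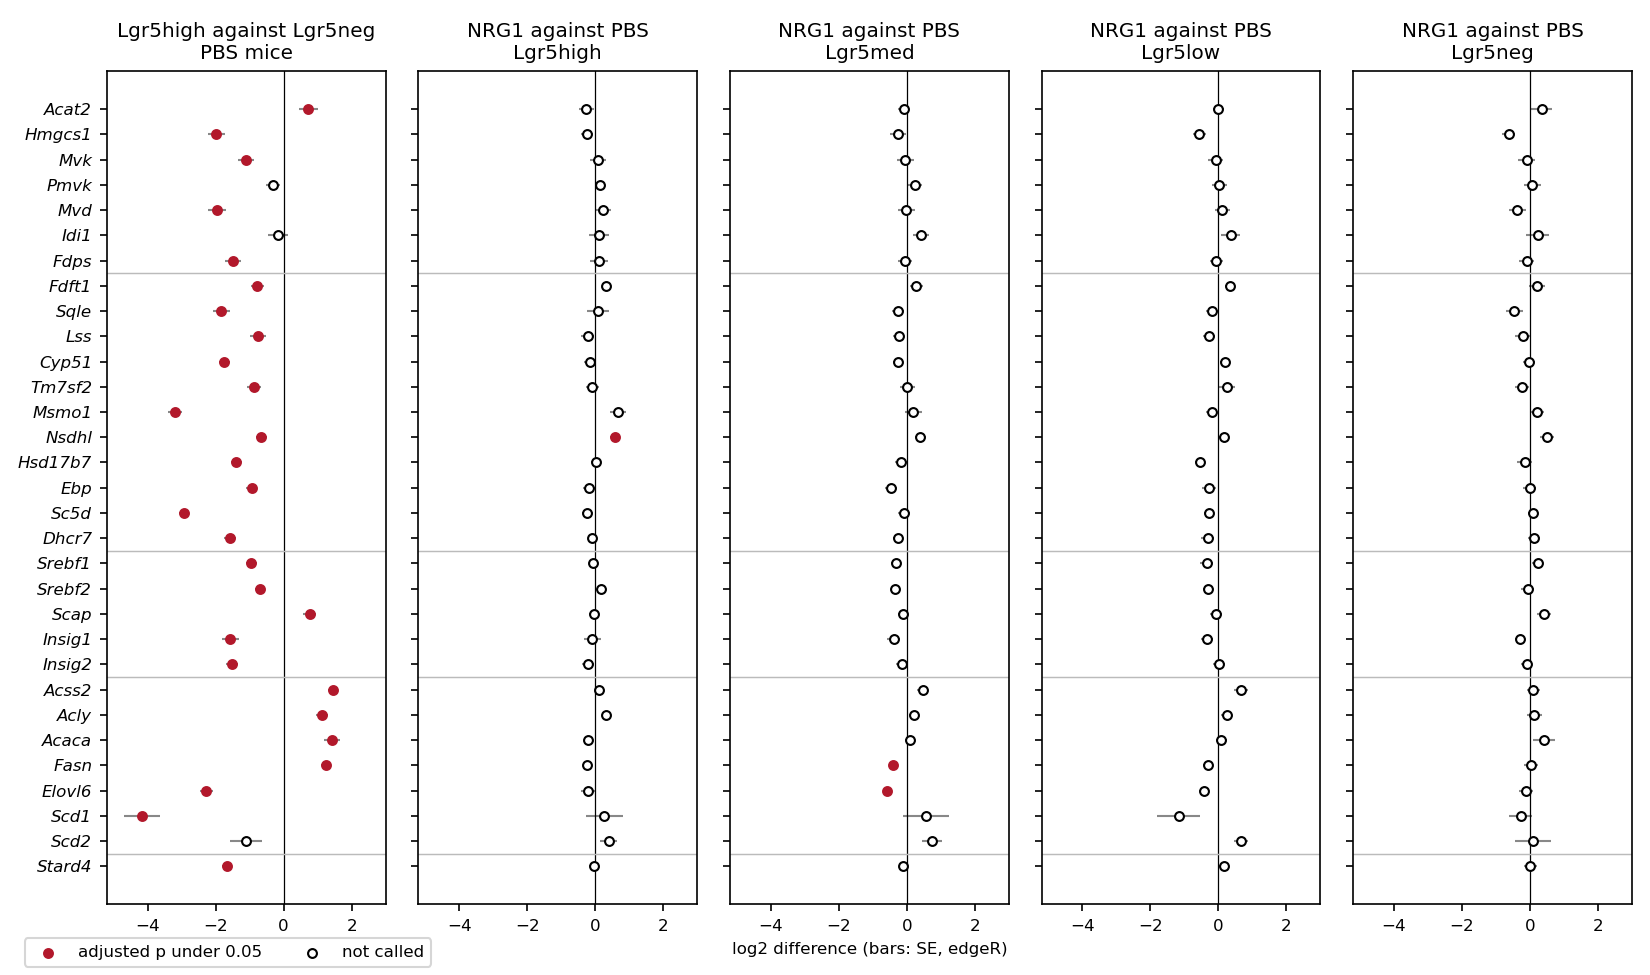
Log2 differences of the 31 genes (points) with standard errors derived from edgeR's test (bars). Shown are Lgr5high against Lgr5neg cells of PBS mice and NRG1 against PBS in each population, with filled points at an adjusted p under 0.05. Most points of the population contrast lie below 0, and the NRG1 differences run from -1.17 (Scd1 in Lgr5low cells) to 0.75 (Scd2 in Lgr5med cells), with Nsdhl called in Lgr5high cells and Elovl6 and Fasn in Lgr5med cells.

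In Lgr5med cells the elongase Elovl6 and the fatty acid synthase Fasn were lower with NRG1, and none of the 31 genes was higher by edgeR in the fit without a replicate block, against 9.55% of all genes called (3.76% higher and 5.79% lower). DESeq2 called 1 higher (Scd2) and 2 lower. With the replicate number as a block, edgeR called 3 higher (Scd2, Acss2 and Nsdhl) and 4 lower. That fit called 2333 of all genes, against 1279 without the block. Elovl6 had 63.5, 68.9 and 65.9 CPM in PBS and 38.4, 48.1 and 44.4 CPM in NRG1 mice (log2 difference -0.58, SE 0.119, adjusted p = 0.00928). Fasn had 91.2, 102 and 99.0 CPM in PBS and 70.5, 73.5 and 71.5 CPM in NRG1 mice (-0.42, SE 0.108, adjusted p = 0.0279). Neither gene overlapped between treatments. Elovl6 passed in 12 of 14 alternative fits (adjusted p 0.000689 to 0.0651) and was lost in the model of all 24 libraries (0.0651) and without PBS replicate 2 (0.0539). Fasn passed in 8 of 14 (0.0114 to 0.129) and was lost in that model (0.0954), in the 15-week-old mice (0.129), and without NRG1 replicate 1 (0.0558) or 2 (0.0811) or PBS replicate 2 (0.124) or 3 (0.121).

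The control genes of the pathway lay lower in NRG1 Lgr5med cells without passing the test. Srebf2 had 60.3, 57.4 and 52.6 CPM, below every PBS value (-0.34, SE 0.114, adjusted p = 0.0772), and Srebf1 had 20.2, 19.6 and 17.9 CPM, also below every PBS value (-0.33, SE 0.138, adjusted p = 0.146). Insig1 had 13.3, 20.8 and 17.6 CPM (-0.39, adjusted p = 0.237), Sqle 19.8, 35.2 and 32.4 CPM (-0.26, adjusted p = 0.439) and Hmgcs1 49.7, 37.5 and 70.7 CPM (-0.26, adjusted p = 0.573). These 3 overlapped their PBS values. Scd2 lay higher with 47.7, 61.8 and 68.9 CPM (0.75, SE 0.297, adjusted p = 0.177), and its PBS replicate 2, at 52.4 CPM, lay within the NRG1 range. Without that library the Scd2 difference was 1.12 (adjusted p = 0.00859), within alternatives that ranged from 0.000156 to 0.627. Scd1 stayed near its floor at 0.461, 0.226 and 0.656 CPM. Of the 31 genes, 8 had an unadjusted p under 0.05, against 25.4% of all genes, and the median difference was -0.09, against 0.01.

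Around these genes in Lgr5med cells, Npc1 (0.65, adjusted p = 0.0171), Abcg8 (0.47, adjusted p = 0.0398), Pdss1 (0.48, adjusted p = 0.0335) and Mbtps2, the site-2 protease that releases SREBPs (0.53, adjusted p = 0.0393), were higher with NRG1. Acsl5 (-0.48, adjusted p = 0.0187), the fatty acid desaturase Fads1 (-0.69, adjusted p = 0.0309) and Por (-0.46, adjusted p = 0.0487) were lower. Enterocyte markers moved in the same libraries, with 5 of 20 lower, among them Fabp1 (-1.55), and a summed level of 2050 ± 382 CPM with NRG1 against 2930 ± 291. Of the G2/M markers 5 of 12 were higher (2260 ± 190 CPM against 1810), and of the stem cell markers 1 of 15, Rgmb. The part of these cell type differences in the lower Elovl6 and Fasn levels was not tested.

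In Lgr5low cells edgeR and DESeq2 called none of the 31 genes for NRG1 against PBS in fits without a replicate block. Of all genes, edgeR called 0.443% (0.143% higher and 0.3% lower). An unadjusted p under 0.05 in edgeR was found for 7 of the 31 (3 higher and 4 lower), against 13.5% of all genes. Scd2 had 51.3, 72.2 and 53.4 CPM with NRG1, above every PBS value (0.67, SE 0.203, adjusted p = 0.188). Acss2 had 33.6, 46.4 and 24.2 CPM, also above every PBS value (0.66, SE 0.207, adjusted p = 0.2). With the replicate number as a block, since same-numbered libraries of this population deviated together, Scd2 (adjusted p = 0.0046, alternatives 0.00351 to 0.675) and Acss2 (0.0304, alternatives 0.0108 to 0.697) passed and were higher. That fit called 573 of all genes, against 59 without the block. Hmgcs1 lay lower at 77.0, 51.3 and 64.0 CPM (-0.56, adjusted p = 0.243), as did Hsd17b7 (-0.54) and Elovl6 (-0.42). Fasn had 61.9, 76.8 and 75.8 CPM (-0.30), Sqle 35.2, 47.6 and 43.9 CPM (-0.19) and Insig1 21.2, 29.2 and 29.6 CPM (-0.33). Srebf1 had 22.9, 18.7 and 22.2 CPM (-0.35), Srebf2 62.9, 68.3 and 73.2 CPM (-0.31) and Scd1 0.797, 0.348 and 0.508 CPM (-1.17). Of the 31 genes, those lying lower without overlapping their PBS values were Hsd17b7, Elovl6, Srebf1, Sc5d and Lss. Those lying higher without overlap were Scd2, Acss2 and Fdft1 (34.8 to 36.1 CPM with NRG1 against 24.3 to 32.5). Sc5d had 18.7 to 20.4 CPM with NRG1 against 22.9 to 26.6, and Lss 19.1 to 23.2 against 23.4 to 33.2. The share of all genes without overlap was not computed, so neither list is shown to exceed what other genes would give.

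Of the further pathway genes in Lgr5low cells, Soat1 was higher with NRG1, with 67.4 to 72.7 CPM against 40.7 to 46.9 (0.73, SE 0.13, adjusted p = 0.0369). Its difference in Lgr5med cells was 0.68 (adjusted p = 0.0791) and in Lgr5high cells -0.02. The ratio Soat1 to Soat2, chosen after its values were seen, was 19.7 to 44.3 in NRG1 Lgr5med libraries against 8.62 to 17.4 in PBS, and 4.24 to 6.61 against 1.85 to 2.82 in Lgr5low libraries, without overlap in either population. Stem cell markers summed to 1530 ± 344 CPM in NRG1 and 978 ± 31.3 CPM in PBS Lgr5low libraries. Their part in the Soat1 difference was not tested.

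In Lgr5neg cells edgeR and DESeq2 again called none of the 31 genes in fits without a replicate block. Of all genes, edgeR called 0.328% (0.151% higher and 0.176% lower). An unadjusted p under 0.05 in edgeR was found for 2 of the 31, against 10.6% of all genes. Hmgcs1 had 88.0, 68.9 and 99.7 CPM with NRG1 (-0.63, SE 0.202, adjusted p = 0.255), and the 94.6 CPM of PBS replicate 3 lay within that range. Nsdhl had 27.1, 40.2 and 43.0 CPM against 22.6, 28.3 and 27.0 CPM (0.50, adjusted p = 0.373), and passed with the replicate block (adjusted p = 0.0329, alternatives 0.0329 to 0.838). The blocked fit called 839 of all genes, against 39 without the block. Sqle had 32.8, 49.5 and 63.3 CPM (-0.46), Insig1 33.8, 37.4 and 36.2 CPM (-0.29) and Scd1 6.22, 5.02 and 11.0 CPM (-0.28). Fasn had 21.8, 36.6 and 26.4 CPM (0.03), Srebf1 51.9, 39.3 and 39.4 CPM (0.22), Srebf2 54.9, 89.4 and 82.4 CPM (-0.07) and Scd2 32.6, 94.6 and 63.4 CPM (0.10). Of these, Insig1 alone lay below every PBS value. Outside the 31 genes, the cholesterol exporter Abca1 was lower with NRG1, with 21.1 to 29.1 CPM against 47.1 to 68.0 (-1.11, SE 0.181, adjusted p = 0.0269). In the same libraries the goblet markers summed to 1210 to 3730 CPM with NRG1 against 4750 to 6630 CPM, without overlap, although none of the 9 passed in edgeR (7 at an unadjusted p under 0.05, 3 by DESeq2). The enterocyte markers summed to 48800 ± 9640 CPM against 67300 ± 17100 CPM, and none of the 20 passed in edgeR (3 at an unadjusted p under 0.05, 2 by DESeq2). The part of these cell type differences in the Abca1 level was not tested.

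Whether the NRG1 response of these genes differed between populations was tested by interaction terms against Lgr5high cells. None of the 31 genes passed in edgeR or DESeq2 in Lgr5med, Lgr5low or Lgr5neg cells, where 0%, 0% and 0.0532% of all genes were called, the last as 0.0399% higher and 0.0133% lower. At an unadjusted p under 0.05 there were 1, 4 and 1 of the 31 genes, against 3.83%, 4.49% and 8.66% of all genes. The response of Elovl6 in Lgr5med cells minus that in Lgr5high cells was -0.37 (approximate 95% interval -0.91 to 0.17), and that of Fasn -0.17 (-0.60 to 0.26). For Nsdhl the response in Lgr5low minus that in Lgr5high cells was -0.40 (-0.85 to 0.04). The calls of single genes in 1 population are therefore not shown to be particular to it.

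The sterol genes also varied between mice of a group. PBS replicate 2 held the highest level of its group for 14, 16, 12 and 15 of the 18 sterol enzymes in Lgr5high, Lgr5med, Lgr5low and Lgr5neg cells. The same mouse was highest for 28.1 to 35.9% of all genes tested in these populations. The median log2 deviation of the 18 enzymes from their group means was 0.18, 0.22, 0.12 and 0.20 in its 4 libraries, and the lowest median was -0.23 in NRG1 replicate 1 of Lgr5neg cells. The 4 libraries of a mouse were prepared from 1 animal and are not independent. Marker sums moved with this mouse in part. Its Lgr5high library had the highest goblet sum of its group (1970 against 426 and 864 CPM), the highest enterocyte sum (2100 against 1670 and 1490 CPM) and the lowest stem cell sum (4530 against 6280 and 5680 CPM). Its enterocyte sum was the lowest of the group in Lgr5med (2740 CPM), Lgr5low (6220 CPM) and Lgr5neg cells (49300 CPM). The Lgr5neg library of NRG1 replicate 1 had the highest share of mitochondrial ribosomal RNA of all 24 libraries, at 62.4%. The part of these differences in the sterol gene levels was not tested.

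**Figure D5:**
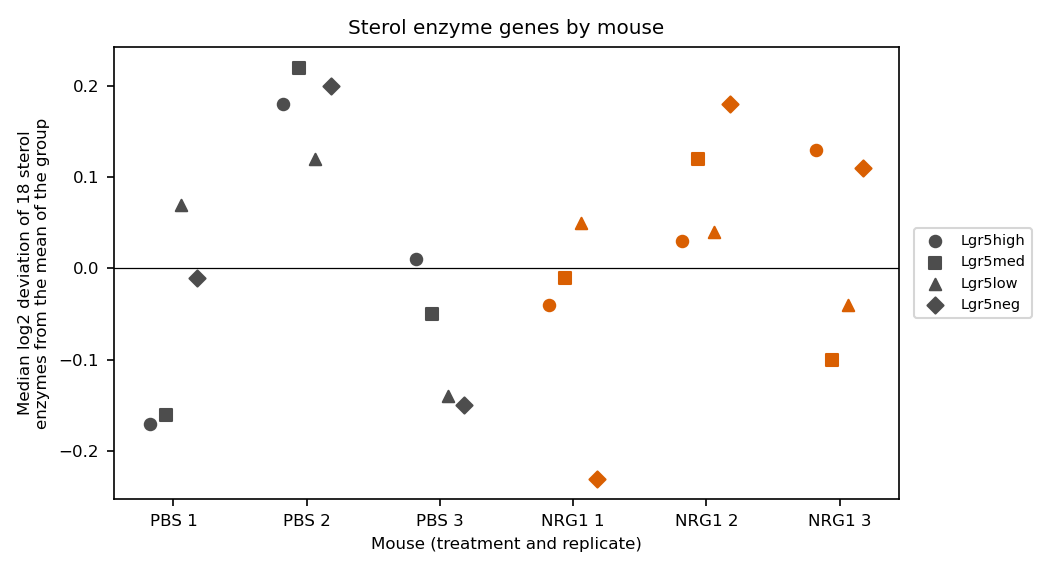
Median log2 deviation of the 18 sterol enzymes from the mean of their group (vertical axis) for each mouse (horizontal axis, treatment and replicate), with 1 symbol per population. PBS replicate 2 lies above 0 in all 4 populations, from 0.12 to 0.22, and the lowest point is Lgr5neg of NRG1 replicate 1 at -0.23.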

How the data were processed

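RNA-seq was measured in 24 libraries, 3 mice in each of 8 groups. Reads of 76 nt were aligned with STAR to GRCm38 and counted with featureCounts, per the submitters' processing notes. Not given in the sources used here are the versions, the strand setting and the annotation release. Values deposited are raw counts per gene symbol (43280 symbols, totals 11176264 to 23343499), and no column was left unused. Each library is 1 sort from 1 mouse, so counting error and sorting error are not separated, and the floor of 3 counts covers counting error only. No 2 of the 276 library pairs were identical.

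From the counts, edgeR 4.0.16 (limma 3.58.1, R 4.3.3) gave log2 differences by the robust quasi-likelihood test with TMM scaling after a filter on low counts (minimum 10 in the smallest group, 15 in total). P-values were Benjamini-Hochberg adjusted over all genes tested, and an adjusted p under 0.05 is a call. The 4 NRG1 comparisons used the libraries of their own population, the 8 population comparisons all libraries of a treatment, and the 3 interactions all 24. Levels are CPM with TMM factors over all libraries. Exon lengths for CPM per kb, counted over the exons of all isoforms of a gene, and gene positions came from GENCODE vM21 (GRCm38). The tests were tried first on simulated counts with known log2 differences. For NRG1 against PBS in Lgr5med cells, 66.3% of differences of 1 were recovered, and 19 of 174 calls were false. For Lgr5high against Lgr5neg cells of PBS mice, 52% were recovered, and 6 of 133 calls were false.

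The members and lists were chosen with earlier results of these data known. Values in full are given for Hmgcs1, Sqle, Insig1, Srebf1, Srebf2, Fasn, Scd1 and Scd2, and for up to 5 called genes per direction with the smallest adjusted p in the NRG1 comparisons and in Lgr5high against Lgr5neg cells of PBS mice, or up to 4 in other comparisons. Of further pathway genes and markers up to 3 called per list are named, apart from those said to be chosen after their values were seen. The further elongase and desaturase genes given beside the palmitate-synthesis enzymes are also outside this rule.

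The 4 populations of a treatment came from the same 3 mice, which pairs them across populations. The main fits held no block for mouse or replicate number. For NRG1 against PBS, same-numbered libraries deviated together in Lgr5low (correlation 0.13 to 0.17 across genes) and Lgr5neg cells (lowest 0.103), above the limit of 0.1. There the fit with the replicate number as a block is given beside the main fit. In Lgr5high and Lgr5med cells same-numbered correlations were 0.07 to 0.22 and 0.07 to 0.21, against at most 0.07 and 0.05 for other numbers. Their lowest lay under the limit, and the numbers were not taken as pairs there. The same mice gave all 4 populations, so this split rests on the limit and not on the mice. Alternatives were DESeq2 1.42.0 and its size factors, no filter, removal of mitochondrial genes, a block for mouse or replicate number, all 24 libraries in 1 model, 15-week-old mice only, and leaving out each library. Library totals outside mitochondrial ribosomal RNA were added as scaling after seeing the data.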

Additional observations from a re-analysis of the deposited data

How the results depend on the processing

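Of 119 results in which 1 of the 31 genes was called, 68 kept their call under every alternative. For NRG1 against PBS, the model of all 24 libraries called 0 genes in Lgr5high and 0 in Lgr5med cells, and the 15-week-old mice 0 and 1. Without a filter the counts were 4 in Lgr5med, 3 in Lgr5low and 1 in Lgr5neg cells, and 7 between Lgr5med and Lgr5low cells of PBS mice. Of all genes, 1758, 497, 272 and 1451 were called without the filter, against 1279, 59, 39 and 1078 with it. The replicate block gave 7 calls in Lgr5med cells, adding Scd2 (adjusted p = 0.000626), Acss2 and Nsdhl as higher and Srebf2 and Ebp as lower, 2 in Lgr5low and 1 in Lgr5neg cells. Of all genes it called 2333, 573 and 839 in these populations, against 1279, 59 and 39 without the block. The mouse as replicate block gave 7 between Lgr5med and Lgr5low cells of PBS mice and 6 of NRG1 mice. Apart from these and the blocked values given beside results above, no count moved by over 1.5 times under the block. Library totals gave 6 calls between Lgr5high and Lgr5med cells of PBS mice and 1 between Lgr5med and Lgr5low cells of NRG1 mice. Under that scaling 7 called differences changed sign. In PBS mice these were Srebf1 (Lgr5low against Lgr5neg, 0.02) and Nsdhl (Lgr5high against Lgr5neg, 0.02). In NRG1 mice they were Cyp51 (0.11), Nsdhl (0.04) and Insig1 (0.03) for Lgr5low against Lgr5neg, and Nsdhl (0) and Srebf2 (0.12) for Lgr5high against Lgr5neg. This scaling lowers the level of most genes in Lgr5neg libraries by construction; for other changes the cause was not tested.

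Leaving out 1 library gave, for NRG1 against PBS, 0 to 2 calls in Lgr5high, 1 to 3 in Lgr5med and 0 in Lgr5low and Lgr5neg cells. In Lgr5high cells the count moved by over 1.5 times without NRG1 replicate 1 or 3 or PBS replicate 3, and in Lgr5med cells without NRG1 replicate 2 or PBS replicate 2 or 3. The ranges were 5 to 13, 2 to 4, 13 to 17 and 27 to 28 for Lgr5high against Lgr5med, Lgr5med against Lgr5low, Lgr5low against Lgr5neg and Lgr5high against Lgr5neg cells of PBS mice, and 1 to 5, 1 to 3, 15 to 20 and 26 to 27 in NRG1 mice. Interactions gave 0 throughout. With 3 mice per group, small differences are hard to tell from the spread between mice, and Scd1 outside Lgr5neg cells rested on few counts.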

Other observations

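Of 7 further genes of SREBP processing and sterol sensing, 1 was higher and 4 were lower in Lgr5high than in Lgr5neg cells of PBS mice by edgeR, against 67.4% of all genes called. Nr1h3, which encodes the oxysterol receptor LXRα, was lower in Lgr5high than in Lgr5neg cells (log2 difference -2.69), as was Nr1h2, which encodes LXRβ (-0.83, lost in 1 of 13 alternatives, whose adjusted p ranged from 1.51e-05 to 0.416). Scaling by library totals moved the median of all genes by 0.66 in this contrast. Mbtps2 was higher in Lgr5high cells, at 17.6 against 9.21 CPM, and the protease gene Mbtps1 (43.5 against 44.9 CPM) and the ubiquitin ligase gene Rnf139 (16.6 against 15.3 CPM) did not pass. Me1, the cytosolic malic enzyme that supplies NADPH for lipid synthesis, averaged 0.934 CPM in Lgr5high and 13.7 CPM in Lgr5neg cells (-3.95), opposite to the palmitate-synthesis enzymes. Fads1, chosen after its values were seen, averaged 207 CPM in Lgr5high and 4.39 CPM in Lgr5neg cells (5.47, adjusted p = 1.5e-08 in edgeR).

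Srebf2 to Srebf1, as a ratio of counts within a library chosen after its values were seen, was 2.41 to 2.65 in the 3 PBS and 2.76 to 3.11 in the 3 NRG1 libraries of Lgr5high cells. The groups did not overlap there, but they did in the other populations. PBS and NRG1 libraries spanned 2.58 to 3.51 and 2.93 to 2.98 in Lgr5med cells and 2.77 to 3.66 and 2.75 to 3.65 in Lgr5low cells. In Lgr5neg cells they spanned 1.93 to 2.46 and 1.06 to 2.28. The ratio was not tested.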
